A study of Mus musculus with 6 samples.

Results

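Antioxidant and glutathione genes are described here in EDL, the extensor digitorum longus, a fast-twitch muscle of the hindlimb, of mice that lack Akt1 and Akt2 in skeletal muscle. The genes were taken by a rule on their symbols that uses no values, but earlier results of these data were known when they were chosen. They comprise the alpha, kappa, mu, omega, pi, theta and zeta glutathione S-transferases, the microsomal glutathione S-transferases, the glutathione peroxidases, the peroxiredoxins, and listed genes of the superoxide dismutases, catalase, glutathione synthesis, thioredoxins, glutaredoxins, the NRF2 axis and the metallothioneins. The rule found 60 genes among the 24411 genes of the table. RNA was sequenced from 3 mAktDKO mice, which carried floxed Akt1 and Akt2 alleles together with Mlc1f-Cre, and from 3 control mice with the floxed Akt1 and Akt2 alleles and no named Cre. All 6 mice were 50 weeks old and on the C57BL/6J background, and the study used males unless it stated otherwise. Mlc1f-Cre drives Cre from a myosin light-chain gene of fast fibres and is little active in muscle stem cells. RNA of cells of the muscle other than fibres is also in each library, and deletion in those cells was not measured here.

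Total estimated counts were between 13738795 and 15445523 per mouse, at which 3 counts, taken as the smallest level that can be shown, correspond to 0.180 to 0.227 CPM (counts scaled by TMM to a common library total) for counting error alone. The targeted genes were examined first. Akt2 had 51.3, 49.1 and 52.7 CPM in the mAktDKO mice against 172, 133 and 143 CPM in the controls, a log2 fold change of -1.55 (SE 0.11, where SE is the standard error, adjusted p = 0.000923 in the quasi-likelihood test of edgeR). Akt1 had 58.9, 56.8 and 51.4 CPM against 66.4, 65.5 and 66.5 CPM, which gave -0.25 on the log2 scale (SE 0.080, adjusted p = 0.115). Scaled by library totals alone, Akt1 was at -0.11 (adjusted p = 0.489 in the same test). Summed over 10 markers, fast fibre RNA was at 109436 to 123147 CPM in the mAktDKO mice and at 126780 to 137624 CPM in the controls, while 7 slow fibre markers summed to 607 to 1317 CPM over the 6 mice, so both groups carried the markers of fast muscle. Control 2 stood apart from the other mice. It had the lowest mean correlation with the others (0.971, against 0.978 to 0.981), and the lowest summed fibro-adipogenic markers, at 7367 CPM against 15850 and 18498 CPM in the other controls. Whether the 3 mice of a group came from separate litters is not stated in the sources used here, so that p-values measure the spread between these mice.

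Muscle makes superoxide and hydrogen peroxide at its mitochondria and at membrane oxidases. Superoxide dismutases turn superoxide into hydrogen peroxide, which catalase, the peroxiredoxins and the glutathione peroxidases then remove. Peroxiredoxins are recharged by thioredoxin and thioredoxin reductase, and glutathione peroxidases by glutathione, a tripeptide made by glutamate-cysteine ligase and glutathione synthetase and kept reduced by glutathione reductase. The glutathione S-transferases join glutathione to reactive compounds. NRF2, encoded by Nfe2l2 and held back by KEAP1, drives many of these genes through the antioxidant response element, and metallothioneins, which bind zinc and copper, are driven by MTF1 through metal response elements. FoxO factors, which Akt inhibits, are known to act on the genes of the superoxide dismutase Sod2 and of catalase in several tissues.

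The promoter windows of 8 genes are printed here because the results turn on these genes or because their windows hold the elements through which the family is known to be driven. Each window covers 250 bases before and 50 bases after the start of a transcript, 5′ to 3′ in the sense of the gene, from RefSeq on GRCm38.p6, the assembly of mm10. Capitals mark each match on either strand to the antioxidant response element core (TGACNNNGC), the forkhead element (GTAAACA) or the metal response element core (TGCACNC or TGCGCNC). The windows are chr19:6910057-6910356 on the minus strand for Prdx5, chr16:90220512-90220811 on the plus strand for Sod1, chr2:152105274-152105573 on the plus strand for Srxn1, chr4:116685349-116685648 on the plus strand for Prdx1, chr2:75704614-75704913 on the minus strand for Nfe2l2, chr8:94178839-94179138 on the plus strand for Mt1, chr8:94172368-94172667 on the plus strand for Mt2 and chr3:96557707-96558006 on the plus strand for Txnip.
Prdx5: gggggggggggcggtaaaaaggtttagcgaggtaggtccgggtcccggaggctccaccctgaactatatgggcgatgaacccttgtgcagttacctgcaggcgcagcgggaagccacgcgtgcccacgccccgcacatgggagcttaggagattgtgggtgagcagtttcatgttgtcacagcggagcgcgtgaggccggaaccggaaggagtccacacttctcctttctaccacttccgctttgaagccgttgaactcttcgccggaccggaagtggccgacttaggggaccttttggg
Sod1: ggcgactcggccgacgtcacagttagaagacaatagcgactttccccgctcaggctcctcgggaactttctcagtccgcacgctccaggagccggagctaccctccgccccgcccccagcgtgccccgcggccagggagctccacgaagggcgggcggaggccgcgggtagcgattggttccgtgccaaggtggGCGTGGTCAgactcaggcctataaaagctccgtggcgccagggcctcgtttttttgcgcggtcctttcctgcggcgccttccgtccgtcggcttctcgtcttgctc
Srxn1: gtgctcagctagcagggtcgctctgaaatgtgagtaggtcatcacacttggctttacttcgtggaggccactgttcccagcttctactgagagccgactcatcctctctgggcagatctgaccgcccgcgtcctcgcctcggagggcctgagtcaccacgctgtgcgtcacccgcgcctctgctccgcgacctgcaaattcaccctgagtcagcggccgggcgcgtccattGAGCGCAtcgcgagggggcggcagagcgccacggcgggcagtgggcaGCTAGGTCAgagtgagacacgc
Prdx1: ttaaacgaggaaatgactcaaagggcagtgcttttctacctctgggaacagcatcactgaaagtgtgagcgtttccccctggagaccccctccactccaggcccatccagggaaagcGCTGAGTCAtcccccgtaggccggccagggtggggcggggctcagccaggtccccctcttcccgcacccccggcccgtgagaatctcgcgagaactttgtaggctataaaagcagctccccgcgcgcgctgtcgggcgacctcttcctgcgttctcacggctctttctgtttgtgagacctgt
Nfe2l2: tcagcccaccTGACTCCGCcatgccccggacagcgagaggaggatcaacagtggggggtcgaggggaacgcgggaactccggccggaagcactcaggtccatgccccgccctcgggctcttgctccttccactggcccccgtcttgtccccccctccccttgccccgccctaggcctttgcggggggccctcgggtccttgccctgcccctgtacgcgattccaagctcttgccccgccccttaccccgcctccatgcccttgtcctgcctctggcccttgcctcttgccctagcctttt
Mt1: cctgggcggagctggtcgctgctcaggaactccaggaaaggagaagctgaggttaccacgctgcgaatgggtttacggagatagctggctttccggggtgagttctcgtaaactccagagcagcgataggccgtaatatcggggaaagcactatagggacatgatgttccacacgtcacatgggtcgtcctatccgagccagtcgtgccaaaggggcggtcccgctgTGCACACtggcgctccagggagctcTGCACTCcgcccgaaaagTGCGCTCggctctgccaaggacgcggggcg
Mt2: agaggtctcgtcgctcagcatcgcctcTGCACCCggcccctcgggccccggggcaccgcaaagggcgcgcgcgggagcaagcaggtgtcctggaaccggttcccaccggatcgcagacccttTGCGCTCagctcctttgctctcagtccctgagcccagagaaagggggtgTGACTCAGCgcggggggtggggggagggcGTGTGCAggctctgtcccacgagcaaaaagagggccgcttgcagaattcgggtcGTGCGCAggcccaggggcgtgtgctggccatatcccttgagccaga
Txnip: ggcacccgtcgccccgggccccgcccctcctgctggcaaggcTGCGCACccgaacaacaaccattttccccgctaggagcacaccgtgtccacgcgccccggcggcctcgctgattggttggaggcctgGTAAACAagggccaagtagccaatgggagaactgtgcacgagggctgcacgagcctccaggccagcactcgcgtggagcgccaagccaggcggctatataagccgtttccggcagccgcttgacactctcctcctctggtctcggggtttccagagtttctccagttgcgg

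The Prdx5 window held none of the 3 motifs. One antioxidant response element core each was found in Sod1 (GCGTGGTCA, 56 bases before the start), Srxn1 (GCTAGGTCA, from 28 bases after it), Prdx1 (GCTGAGTCA, 133 before), Nfe2l2 (TGACTCCGC, 240 before) and Mt2 (TGACTCAGC, 79 before). Mt1 held 3 metal response element cores and Mt2 held 4, and Txnip held a forkhead element 121 bases before its start. Of the 60 genes, 53 had at least 1 window in the table and 71 windows were found. Hmox1, Gsta4, Gsr, Gclc, Prdx6, Gstt2 and Sod3 had none. The antioxidant response element core was in 11 of the 71 windows (15.5%) and in 12.4% of all 32851 promoter windows. The metal response element core was in 21 (29.6%), against 25.7% of all windows, and the forkhead element in 2 (2.82%), against 3.65%. Motifs can overlap, as an antioxidant and a metal response element core did in the Gclm window. A match is a match of letters and no evidence of binding.

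Of the 60 genes, 50 had enough counts to be tested, among 12892 genes in all. In sum, the RNA of 4 of 6 peroxiredoxins and of Sod1 stood lower in all 3 mAktDKO mice than in any control, as did 16.6% of all tested genes. None of the 5 tested glutathione peroxidases stood apart. Sod2 and Cat, both measured by RT-PCR in the study, overlapped between the groups. By RT-PCR, another measure, the paper reports Sod2 as down-regulated in fast-twitch muscle of mAktDKO mice. Nfe2l2 and Gstz1 stood higher in all 3 mAktDKO mice, as did 14.5% of all tested genes. At the adjusted p of 0.01 used in the study, edgeR's quasi-likelihood test called 0 of the 50 genes (0.0233% of all tested genes were called), and DESeq2 called Prdx5 and Gstp1, or 4.17% of the 48 genes to which it gave an adjusted p, against 3.09% of all such genes. At an adjusted p of 0.05 edgeR called 1 gene, Prdx5, against 1.18% of all tested genes, and DESeq2 called 8 (Prdx5, Gstp1, Prdx2, Gstk1, Prdx6, Mt1, Prdx3 and Sod1), or 16.7% of the genes to which it gave an adjusted p, against 7.33% of all such genes. At an unadjusted p of 0.05, 13 genes were lower and 4 higher in the mAktDKO mice, or 26% and 8% of those tested, against 13.1% and 11.4% of all tested genes. The groups did not overlap for 14 genes on the lower side (28% of those tested, 16.6% of all genes) and for 5 on the higher side (10%, against 14.5% of all genes). The log2 fold change was below 0 for 29 of 50 genes (58%), against 47.5% of all genes. Its median was -0.094 over the 50 genes and 0.017 over all tested genes.

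**Figure D1:**
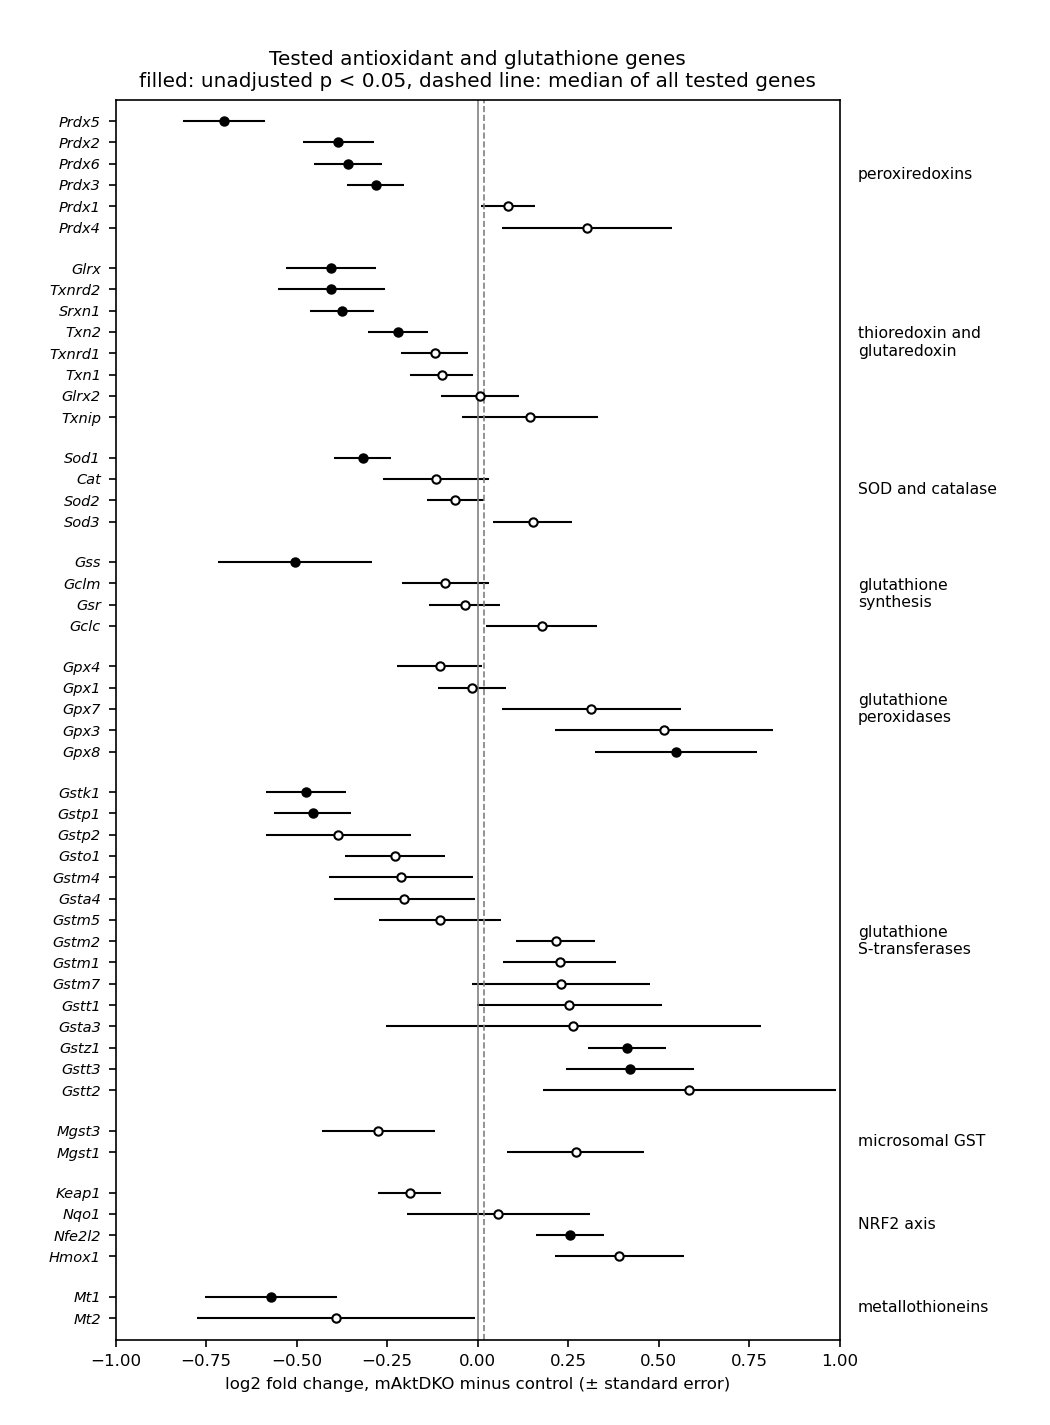
The log2 fold change (mAktDKO minus control, x axis, with its standard error from edgeR) is plotted for the 50 tested genes, grouped by role. Filled points have an unadjusted p under 0.05, and the dashed line is the median of all tested genes (0.017). Of the 17 filled points, 13 lie to the left of 0, with Prdx5 the farthest (-0.70).

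These shares depend on how the mice were scaled. With the TMM method, used throughout, the scaling factors were 1.07, 1.09 and 0.987 in the mAktDKO mice and 0.927, 0.971 and 0.963 in the controls. Scaled by library totals alone, the median of all genes moved from 0.017 to 0.16. The median of the antioxidant genes moved with it to 0.043, and their distance from all genes stayed at -0.11. Under library totals 7 antioxidant genes were lower and 9 higher at an unadjusted p of 0.05, against 5.02% and 23.0% of all tested genes. Prdx5, Prdx2, Prdx6, Srxn1, Gstp1, Gstk1 and Mt1 then remained on the lower side, and Prdx3, Sod1, Glrx, Txnrd2, Txn2 and Gss (-0.36) did not. The added genes on the higher side were Gstm1 (0.37), Gstm2 (0.35), Prdx1 (0.22), Hmox1 (0.52) and Sod3 (0.29), and Nfe2l2 moved to 0.39.

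Peroxiredoxins, the thiol enzymes that reduce hydrogen peroxide and organic peroxides, held the gene with the smallest p. Of the 6 members, 4 stood lower in all mAktDKO mice (16.6% of all tested genes did), and 2 overlapped between the groups. Values are given in CPM for mAktDKO mice 1, 2 and 3 and then for controls 2, 3 and 4. Prdx5, a peroxiredoxin of mitochondria, peroxisomes and cytosol on chromosome 19 from 6906697 to 6910106 of mm10, had 34.3, 27.0 and 31.1 CPM against 55.4, 48.5 and 46.0 CPM. Every mAktDKO mouse lay below every control, with means of 30.8 ± 3.68 and 50.0 ± 4.87 CPM (SD, n = 3 each). The ratio was 0.616 and the log2 fold change -0.70 (SE 0.11, adjusted p = 0.0394 by edgeR). The call at 0.05 was lost without any one of the 3 mAktDKO mice or without control 3, where the adjusted p reached 0.198 at most, and the log2 fold change then remained between -0.79 and -0.61 over all 6 omissions. With DESeq2 the adjusted p was 6.95e-05.

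Prdx2, the main cytosolic peroxiredoxin of red cells and also present in muscle, had 77.5, 62.6 and 70.2 CPM against 97.7, 90.7 and 86.1 CPM. Prdx6, which uses glutathione and also acts on phospholipids, had 49.0, 47.1 and 53.6 CPM against 70.5, 60.1 and 61.2 CPM. Prdx3, which lies in mitochondria, had 118, 111 and 119 CPM against 144, 147 and 132 CPM. None of these 3 genes overlapped between the groups. Their log2 fold changes were -0.38, -0.36 and -0.28 (SE 0.097, 0.093 and 0.078), with adjusted p of 0.0733, 0.0761 and 0.0856 by edgeR, and each stayed under an unadjusted p of 0.05 without any one mouse. DESeq2 gave adjusted p of 0.0213, 0.0393 and 0.0492. Under library totals the log2 fold changes were -0.25, -0.22 and -0.14, and Prdx3 lost its unadjusted p under 0.05 (0.0953). Erythroid markers are given here because Prdx2 is abundant in red cells. They summed to 150 to 321 CPM in the mAktDKO mice against 114 to 168 CPM in the controls. The sums include Hbb-bs, which had no count in any control. The part of these markers in Prdx2 was not tested. Prdx1, a cytosolic enzyme close to Prdx2, had 108, 105 and 113 CPM against 106, 102 and 99.3 CPM, so that the groups overlapped, with a log2 fold change of 0.08 (SE 0.074). Prdx4, which works in the endoplasmic reticulum, had 7.55, 6.59 and 4.46 CPM against 4.06, 4.74 and 6.35 CPM. These ranges overlapped widely. Exact two-sided permutation gave p = 0.1 for each peroxiredoxin whose groups were apart, the smallest p that 3 mice against 3 can give.

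The thioredoxin and glutaredoxin systems had 8 members, of which 4 stood lower in all mAktDKO mice, again against 16.6% of all tested genes. Srxn1, sulfiredoxin, which repairs overoxidised peroxiredoxins, had 20.8, 19.6 and 20.9 CPM against 26.3, 25.2 and 28.0 CPM. Both groups were narrow and lay apart. This gave a log2 fold change of -0.38 (SE 0.088, adjusted p = 0.0636 by edgeR), or -0.24 under library totals. Glrx, the cytosolic glutaredoxin that removes glutathione from proteins, had 14.8, 16.4 and 14.1 CPM against 19.4, 23.1 and 17.5 CPM, a log2 fold change of -0.40. Txnrd2, the thioredoxin reductase of mitochondria, had 8.56, 7.31 and 8.71 CPM against 12.7, 10.4 and 9.38 CPM, a log2 fold change also of -0.40. Txn2, the thioredoxin of mitochondria, had 82.9, 83.7 and 80.6 CPM against 103, 97.3 and 87.9 CPM, a log2 fold change of -0.22. These 3 genes did not overlap between the groups and had adjusted p of 0.104, 0.145 and 0.151. Under library totals Glrx and Txnrd2 were both at -0.26 and Txn2 at -0.08, and none of the 3 kept an unadjusted p under 0.05 (0.0961, 0.0939 and 0.385). The cytosolic partners stood closer to 0. Txnrd1 had 78.0, 71.4 and 84.0 CPM against 91.4, 82.9 and 79.1 CPM, and Txn1 had 26.4, 23.4 and 24.5 CPM against 25.7, 26.3 and 27.5 CPM. For both the ranges overlapped. Glrx2, a mitochondrial glutaredoxin, lay between 19.6 and 24.3 CPM over all 6 mice, with a log2 fold change of 0.01. Txnip, which binds thioredoxin and restrains glucose uptake, and whose window above holds the forkhead element, had 723, 611 and 547 CPM against 755, 489 and 457 CPM. Control 2 was the highest of the 6 mice, and the log2 fold change of 0.14 (SE 0.19) lay within the spread. Without control 2 it was 0.40, with an adjusted p of 0.122 by edgeR, and without mAktDKO 1, control 3 or control 4 it was 0.03, 0.05 and 0.0086.

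**Figure D2:**
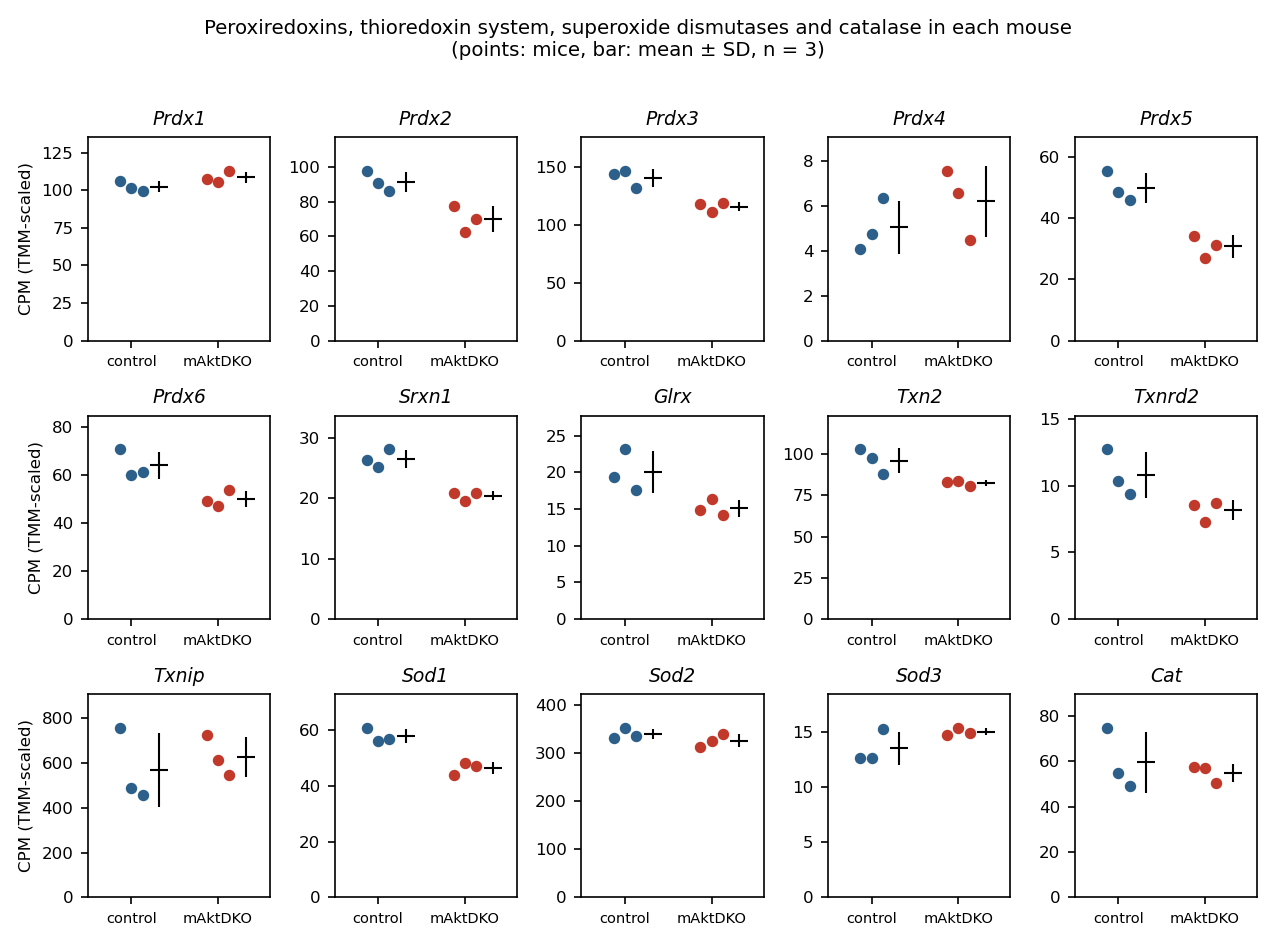
The level (y axis, CPM on TMM-scaled totals, from 0) is plotted for each control (blue) and mAktDKO mouse (red), with the mean and SD of 3 mice beside the points, for the peroxiredoxins, 5 genes of the thioredoxin and glutaredoxin systems, the superoxide dismutases and catalase. Points of the groups do not overlap for Prdx2, Prdx3, Prdx5, Prdx6, Srxn1, Glrx, Txn2, Txnrd2 and Sod1, and overlap for the other 6 genes. Txn1, Txnrd1 and Glrx2, which also overlapped, are not plotted. Among all tested genes, 16.6% were apart on the lower side.

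Among the superoxide dismutases, Sod1, the cytosolic copper-zinc enzyme on chromosome 16 from 90220762 to 90226333, had 44.1, 48.3 and 47.0 CPM against 60.8, 56.0 and 56.9 CPM. The groups lay apart, with means of 46.5 ± 2.17 and 57.9 ± 2.56 CPM (SD, n = 3 each). The log2 fold change was -0.32 (SE 0.079, adjusted p = 0.0699 by edgeR and 0.0496 from DESeq2), and under library totals it was -0.18, with an unadjusted p of 0.0589. Sod2, the manganese enzyme of the mitochondrial matrix, had 313, 326 and 340 CPM against 332, 353 and 335 CPM. Its ranges overlapped and its log2 fold change was -0.06 (SE 0.078, adjusted p = 0.649), or 0.07 under library totals. Cat, the catalase of peroxisomes, had 57.6, 56.8 and 50.4 CPM against 74.6, 54.8 and 49.1 CPM. Only control 2 lay above the mAktDKO mice, and the log2 fold change of -0.12 (SE 0.15, adjusted p = 0.65) was 0.08 without control 2 and 0.03 under library totals. Sod3, the secreted enzyme of the extracellular matrix, had 14.7, 15.3 and 14.9 CPM against 12.7, 12.6 and 15.2 CPM, which overlapped through control 4.

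Glutathione synthesis and reduction comprised 4 genes, of which Gss stood apart. Gss, glutathione synthetase, had 3.61, 3.47 and 3.15 CPM against 6.15, 4.67 and 3.70 CPM. The controls were wide and the lowest of them, control 4, lay close to the mAktDKO mice. Its log2 fold change of -0.50 (SE 0.21, adjusted p = 0.186 by edgeR) was -0.29 without control 2. Gclc, the catalytic subunit of glutamate-cysteine ligase, had 13.8, 9.64 and 12.6 CPM against 11.0, 11.4 and 9.45 CPM, and Gclm, its modifier subunit, had 11.5, 10.5 and 12.8 CPM against 12.7, 11.3 and 12.9 CPM. Gsr, glutathione reductase, had 21.9, 23.1 and 25.4 CPM against 26.0, 23.0 and 23.2 CPM. For these 3 genes the groups overlapped, with log2 fold changes of 0.18, -0.09 and -0.04, of which the last 2 turned to 0.05 and 0.10 under library totals. Gclc was at 0.06 without mAktDKO 1 and at 0.31 without mAktDKO 2, and Gclm at -0.02 without mAktDKO 2 and at -0.18 without mAktDKO 3.

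Of the 8 glutathione peroxidases, 5 were tested, and Gpx2, Gpx5 and Gpx6 had no count in any mouse, which allows up to the 0.180 to 0.227 CPM given above. In no case did the groups separate. Gpx4, the selenoenzyme that reduces lipid peroxides in membranes, had 98.8, 89.3 and 103 CPM against 123, 90.9 and 99.3 CPM. Gpx1, the cytosolic selenoenzyme, had 34.2, 33.7 and 29.2 CPM against 31.0, 33.0 and 34.2 CPM. Log2 fold changes were -0.11 for Gpx4, which became 0.03 under library totals or without control 2, and -0.02 for Gpx1. Gpx3, the secreted plasma form, had 73.7, 108 and 64.9 CPM against 44.2, 39.6 and 89.1 CPM. Control 4 lay among the mAktDKO mice, and the log2 fold change of 0.51 (SE 0.30) was 0.97 without control 4, with an adjusted p of 0.0481 by edgeR. It was 0.27 without mAktDKO 2 and 0.30 without control 3, with adjusted p of 0.712 and 0.566. Gpx8, of the endoplasmic reticulum, had 9.45, 11.5 and 7.75 CPM against 4.54, 7.08 and 8.09 CPM. Only mAktDKO 3 fell within the control range, and the log2 fold change was 0.55 (SE 0.22, adjusted p = 0.176), or 0.34 without control 2 (adjusted p = 0.335). Gpx7, a related enzyme of the same compartment, had 6.09, 5.93 and 4.11 CPM against 2.94, 4.81 and 5.29 CPM, a log2 fold change of 0.31, or 0.09 without control 2. Gpx3, Gpx7 and Gpx8 are also made by connective-tissue cells. The 8 fibro-adipogenic markers, which include Pdgfra, Dcn and Col1a1, all had log2 fold changes above 0 (median 0.40) and summed to 18407 to 21841 CPM in the mAktDKO mice against 7367 to 18498 CPM in the controls. At an unadjusted p of 0.05, 3 of these markers were higher (37.5%, against 11.4% of all tested genes). The groups were apart on the higher side for 2 of them (25%, against 14.5%). None of the 8 was at 0 in any mouse, and their part in the peroxidase values was not tested.

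Of the 21 cytosolic and mitochondrial glutathione S-transferases, 15 were tested, 8 with log2 fold changes above 0 and 7 below. Gstp1, the pi-class enzyme that is abundant in many tissues, had 56.0, 49.2 and 55.5 CPM against 84.1, 67.9 and 68.3 CPM. The groups lay apart, with means of 53.5 ± 3.80 and 73.5 ± 9.25 CPM (SD, n = 3 each). On the log2 scale the fold change was -0.46 (SE 0.11, adjusted p = 0.0616 by edgeR and 0.00954 from DESeq2). Its neighbour Gstp2 had 20.6, 16.8 and 27.7 CPM against 34.2, 22.2 and 28.2 CPM, which overlapped. Gstp1 shares 36.9% of its 37-base windows with the other listed genes and Gstp2 52.7%, so that short reads can be divided between them with error. Summed, the pair had 76.5, 66.0 and 83.2 CPM against 118, 90.2 and 96.5 CPM, still apart, with a log2 fold change of -0.44 (SE 0.12, adjusted p = 0.0905 by edgeR). Gstk1, the kappa-class enzyme of mitochondria and peroxisomes, had 13.5, 13.9 and 15.8 CPM against 22.0, 19.1 and 18.9 CPM. Again no mAktDKO mouse reached the controls, and the log2 fold change was -0.47 (SE 0.11, adjusted p = 0.0616, or 0.0388 from DESeq2).

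In the other direction, Gstz1, the zeta-class enzyme that also degrades tyrosine as maleylacetoacetate isomerase, had 22.3, 27.0 and 22.3 CPM against 17.9, 17.1 and 18.8 CPM. Every mAktDKO mouse was above every control, and the log2 fold change was 0.41 (SE 0.11, adjusted p = 0.0761 by edgeR). Gstt3, of the theta class, had 3.74, 4.73 and 3.98 CPM against 3.22, 2.99 and 3.10 CPM, and Gstm2, of the mu class, had 30.4, 26.8 and 27.9 CPM against 25.9, 21.1 and 26.4 CPM. Both genes lay above the controls in all mAktDKO mice, with log2 fold changes of 0.42 and 0.21 and adjusted p of 0.187 and 0.256. Gstm2 was at 0.12 without control 3. Gstm1, the S-transferase with the highest CPM, had 95.2, 99.8 and 87.8 CPM against 104, 69.1 and 68.4 CPM. Control 2 alone lay above the mAktDKO mice. Its log2 fold change of 0.23 (SE 0.16, adjusted p = 0.39) became 0.45 without control 2, with an adjusted p of 0.0443 by edgeR. It was 0.13 without control 3 and 0.12 without control 4, with adjusted p of 0.679 and 0.675. Summed with Gstm3, with which Gstm1 shares sequence, its log2 fold change was 0.22. The 3 tested theta members all had values above 0, while Gsto1 of the omega class (-0.23), Gstm4 (-0.21), Gsta4 (-0.20) and Gstm5 (-0.10) were below 0, and Gstm7 (0.23), Gstt1 (0.25), Gsta3 (0.26) and Gstt2 (0.58) above it, all with overlapping groups. Omission of a single mouse turned the sign of 4 of these genes, with values of 0.05 for Gsta4 and 0.11 for Gstm5 without control 2, 0.03 for Gstm4 without control 4 and -0.15 for Gsta3 without control 3. Gsto1 was at -0.09 without control 2. Gsta1, Gsta2, Gstm3, Gstm6 and Gsto2 did not pass the filter, with at most 1.68 CPM in any mouse, and Gstt4 had no count.

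Of the 3 microsomal glutathione S-transferases, Mgst3, which also has peroxidase activity, had 30.2, 32.2 and 39.9 CPM against 51.0, 36.0 and 36.7 CPM. Mgst1, which lies in the membranes of the endoplasmic reticulum and mitochondria, had 13.3, 16.5 and 11.2 CPM against 14.3, 9.26 and 10.5 CPM. Both overlapped, with log2 fold changes of -0.27 and 0.27. In both genes control 2 was above the other controls, and without it the values were -0.09 and 0.47. Mgst3 was at -0.42 without mAktDKO 3, and Mgst1 at 0.11 without mAktDKO 2 and at 0.14 without control 3. Mgst2 was at or below 0.480 CPM in every mouse and was not tested.

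**Figure D3:**
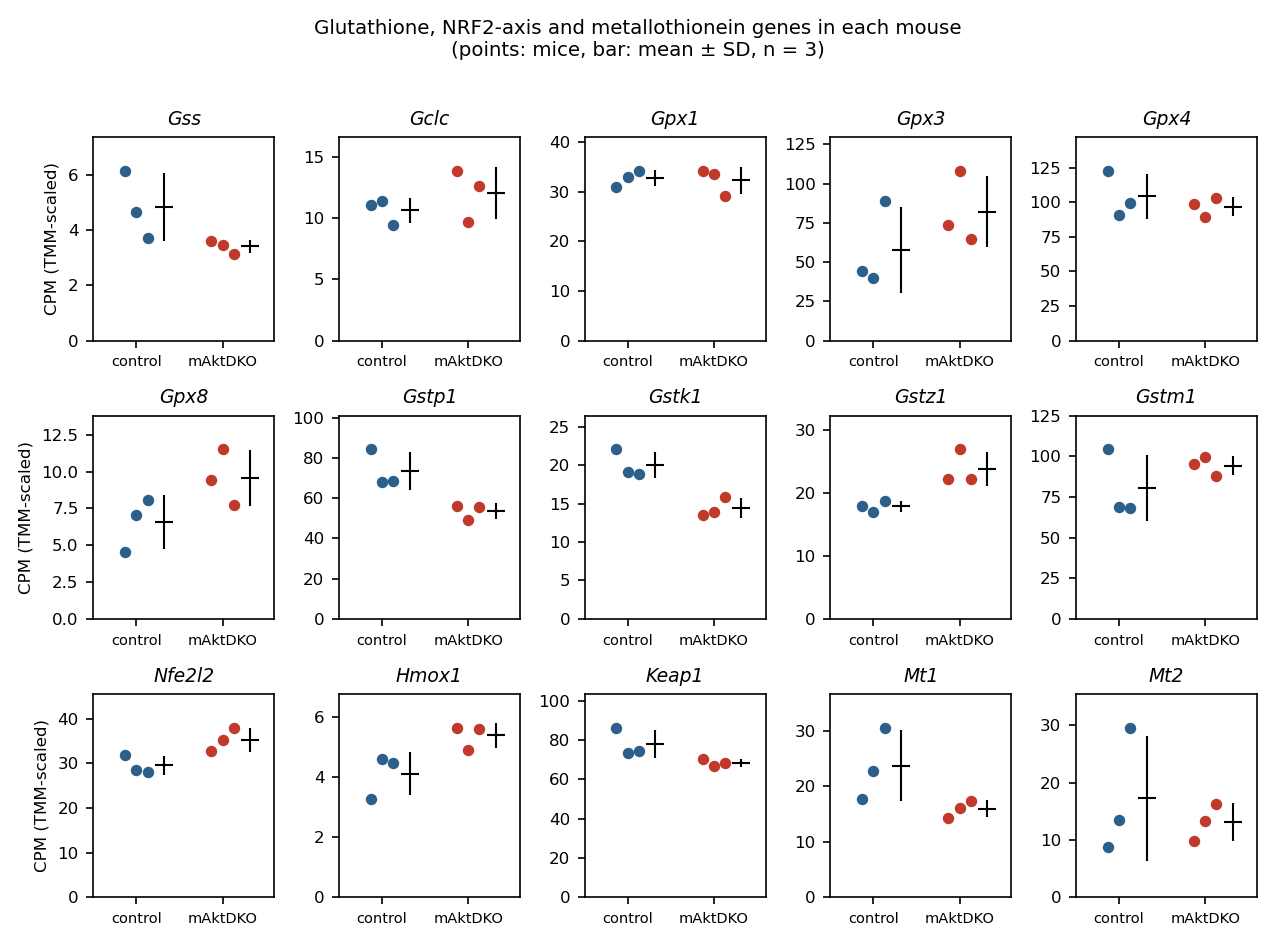
The level (y axis, CPM on TMM-scaled totals, from 0) is plotted for each control (blue) and mAktDKO mouse (red), with the mean and SD of 3 mice beside the points, for 15 genes of glutathione metabolism, the NRF2 axis and the metallothioneins. The groups are apart for Gss, Gstp1, Gstk1, Keap1 and Mt1 on the lower side and for Gstz1, Nfe2l2 and Hmox1 on the higher side. Among all tested genes, 16.6% were apart on the lower side and 14.5% on the higher side.

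The 4 genes of the NRF2 axis did not share a direction. Nfe2l2, which encodes NRF2, had 32.7, 35.2 and 37.9 CPM against 32.0, 28.6 and 28.0 CPM, and Keap1, its inhibitor, had 70.5, 66.6 and 68.1 CPM against 86.1, 73.2 and 74.5 CPM. The groups did not overlap for either gene, though mAktDKO 1 and control 2 were close for Nfe2l2. The log2 fold changes were 0.25 and -0.19 (SE 0.095 and 0.087, adjusted p = 0.15 and 0.216 by edgeR). For Keap1 the value was -0.11 without control 2 and -0.05 under library totals. Hmox1, heme oxygenase, a target of NRF2, had 5.64, 4.91 and 5.62 CPM against 3.29, 4.60 and 4.46 CPM, also apart, with a log2 fold change of 0.39 (SE 0.18, adjusted p = 0.214), or 0.25 without control 2. Hmox1 is high in macrophages that take up red cells. The 9 macrophage markers, among them Adgre1 and Cd68, all had log2 fold changes above 0 (median 0.41) and summed to 120 to 150 CPM in the mAktDKO mice against 79.1 to 129 CPM in the controls. At an unadjusted p of 0.05, 2 of these markers were higher (22.2%, against 11.4% of all tested genes). The groups were apart on the higher side for 2 (22.2%, against 14.5%). None of the 9 was at 0 in any mouse or called at an adjusted p of 0.05, and their part in Hmox1 was not tested. Nqo1, a quinone reductase and another target of NRF2, had 5.96, 5.57 and 8.85 CPM against 8.81, 5.76 and 4.91 CPM, which overlapped over nearly the whole range. Of the 11 genes with an antioxidant response element core in a window, Sod1 and Srxn1 were lower in all mAktDKO mice. Nfe2l2 was higher in all of them. Prdx1, Mt2, Gclm, Gsta3, Gstm5, Gstm7, Mgst1 and Txnrd1 overlapped between the groups. Among all tested genes, 16.6% were apart on the lower side and 14.5% on the higher side.

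Both metallothioneins had log2 fold changes below 0. Mt1 had 14.3, 16.2 and 17.3 CPM against 17.8, 22.8 and 30.5 CPM. The groups lay apart by a small gap between mAktDKO 3 and control 2, and the log2 fold change was -0.57 (SE 0.18, adjusted p = 0.112 by edgeR and 0.0432 from DESeq2). Without control 2 it was -0.74, with an adjusted p of 0.0448, and without control 4 it was -0.35, with an adjusted p of 0.17. Mt2, whose gene lies beside Mt1 on chromosome 8, had 9.76, 13.4 and 16.3 CPM against 8.81, 13.5 and 29.6 CPM. Control 4 was far above the other 5 mice, and the log2 fold change of -0.39 (SE 0.38) was 0.24 without it.

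**Figure D4:**
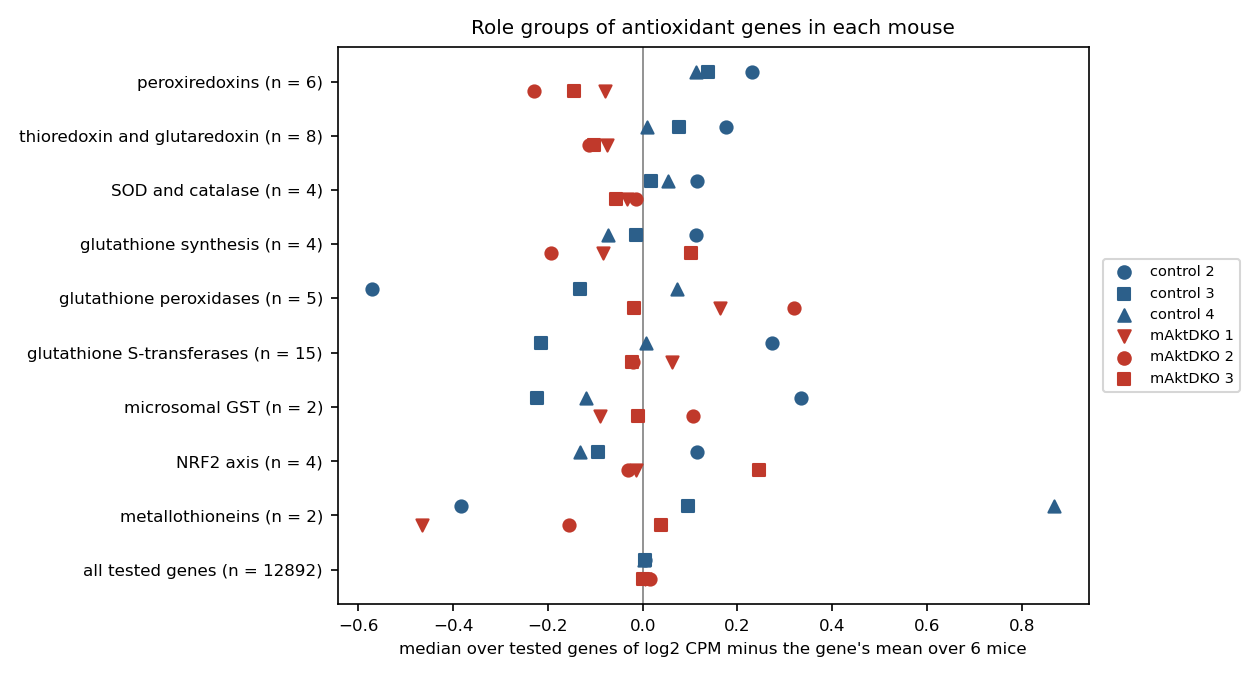
For each mouse (symbol) and role group (y axis, with the number of tested genes) the x axis gives the median, over the genes of the group, of log2 CPM minus the gene's mean over the 6 mice. With TMM scaling, the groups of mice are apart in the peroxiredoxins (controls 0.11 to 0.23, mAktDKO mice -0.23 to -0.08), the thioredoxin and glutaredoxin systems and the superoxide dismutases with catalase, and overlap in the other 6 role groups. For the superoxide dismutases with catalase the gap is small, between mAktDKO 2 (-0.014) and control 3 (0.018). Only Sod1 of these 4 genes was apart. Under library totals the log2 fold changes were -0.18 for Sod1, 0.07 for Sod2, 0.29 for Sod3 and 0.03 for Cat. Medians under library totals, which shift each mouse, were not plotted.

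Levels of different genes were compared as mean CPM per kb of the longest protein-coding transcript, in controls. Txnip was first, at 201 CPM per kb, followed by Gpx4 (105), Prdx3 (95.3), Sod1 (90.3), Gstp1 (89.5), Gstm1 (62.5), Sod2 (58.1) and Prdx2 (56.8). In the mAktDKO mice the order of the same 8 genes was Txnip (222), Gpx4 (97.4), Prdx3 (78.4), Gstm1 (73.2), Sod1 (72.5), Gstp1 (65.2), Sod2 (55.6) and Prdx2 (43.5), with Gpx3 (51.6) and Prdx1 (47.4) between the last 2. The per-length level of neighbours in these orders was not tested.

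The genes around these enzymes were counted by pathway list, and each count at an unadjusted p of 0.05 stands against 13.1% lower and 11.4% higher among all tested genes. Of 7 methionine sulfoxide reductases and sestrins, all tested, 1 was called at an adjusted p of 0.05, against 1.18% of all tested genes. Msrb2, the methionine sulfoxide reductase of mitochondria, had 5.39, 5.03 and 5.14 CPM against 10.3, 9.70 and 9.83 CPM. The groups were narrow and far apart, with a log2 fold change of -0.94 (SE 0.12, adjusted p = 0.018 by edgeR), larger in size than that of any of the 50 antioxidant genes. Msra, which acts on the other form of the oxidised residue, had 9.19, 8.09 and 8.57 CPM against 12.7, 12.5 and 11.0 CPM, a log2 fold change of -0.49 (adjusted p = 0.0646). At an unadjusted p of 0.05, 2 genes of this list were lower (28.6%) and 1, Sesn3, higher (14.3%).

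Among 21 tested genes of further proteins of the thioredoxin fold, 4 were lower (19.0%) and 2 higher (9.52%) at an unadjusted p of 0.05. Glrx5, the mitochondrial glutaredoxin that passes on iron-sulfur clusters, was lower at 29.3, 23.2 and 26.7 CPM against 41.4, 39.7 and 39.6 CPM, with a log2 fold change of -0.61 (adjusted p = 0.0396 by edgeR). Tmx2 of the endoplasmic reticulum was at -0.44 on the log2 scale (adjusted p = 0.0699). Of 19 tested other selenoprotein and selenium genes, 2 were lower and 2 higher (10.5% each). The higher ones include Sepp1, which encodes the secreted selenium carrier selenoprotein P, at 212, 236 and 214 CPM against 127, 166 and 143 CPM, with a log2 fold change of 0.60 (adjusted p = 0.0474). Selo, a mitochondrial selenoprotein, was at -0.48 on the log2 scale (adjusted p = 0.0661).

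Of 16 genes of NADPH supply, which feeds both reductases, 3 were higher (18.8%) and 2 lower (12.5%) at an unadjusted p of 0.05. G6pdx, glucose-6-phosphate dehydrogenase, had 7.93, 8.51 and 7.34 CPM against 4.19, 5.03 and 5.82 CPM, a log2 fold change of 0.66 (adjusted p = 0.0653 by edgeR), whereas Me1, malic enzyme, had 126, 140 and 156 CPM against 206, 154 and 213 CPM, a log2 fold change of -0.44 (adjusted p = 0.104). In the list of cysteine supply and glutathione turnover, with 19 tested genes, 1 was higher (5.26%) and 2 lower (10.5%). Slc7a11, the cystine transporter, had 11.6, 17.1 and 26.2 CPM against 2.03, 7.08 and 10.5 CPM. The groups were apart although both were wide, with a log2 fold change of 1.49 (SE 0.47, adjusted p = 0.108). Oplah, which returns 5-oxoproline to glutamate, was at -0.58 on the log2 scale (adjusted p = 0.0623). Among 27 NRF2 partners and further targets, 1 was higher (3.70%) and 3 lower (11.1%), led by Akr1b3 (aldose reductase, -0.70, adjusted p = 0.0626) and Bach2, a repressor that binds related elements (0.71, adjusted p = 0.0766). Of 12 tested sources of superoxide and hydrogen peroxide, such as the NADPH oxidase subunit Cybb (0.40, adjusted p = 0.256), 10 were above 0 and none had an unadjusted p under 0.05 by edgeR.

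Markers of the fibres and of other cells were measured in the same libraries. All 10 fast fibre markers had log2 fold changes below 0 (median -0.32), 5 of them at an unadjusted p of 0.05 (50%, against 13.1% of all tested genes), none at an adjusted p of 0.05. Of 7 slow fibre markers, 6 were above 0 (median 0.44), 2 of them at an unadjusted p of 0.05 (28.6%), with overlapping groups for each. Of 7 adipocyte markers, 6 were above 0 (median 1.00), 5 of them at an unadjusted p of 0.05 (71.4%, against 11.4% of all tested genes), with overlapping groups for each, and Plin4 was lower in all mAktDKO mice (-0.53, adjusted p = 0.0539 by edgeR). The summed level was 335 to 417 CPM in mAktDKO mice against 380 to 476 CPM in controls. The median was 0.47 for erythroid, 0.24 for Schwann cell and 0.01 for endothelial markers. At an unadjusted p of 0.05, 2 erythroid (40%), 1 Schwann cell (20%) and 2 endothelial markers (25%) were higher and none lower. Of the erythroid markers, 1 had an adjusted p under 0.05 by edgeR. The erythroid gene Hbb-bs had no count in any control and 9.21 to 23.5 CPM in the mAktDKO mice. Yet the erythroid markers summed to 114 to 168 CPM in the controls, and why Hbb-bs was absent there was not tested. The part of all these markers in the values of the antioxidant genes was not tested either. In bulk muscle fewer fibres and less RNA per fibre cannot be told apart.

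Leaving out control 2, which stood apart, gave 11 genes lower and 5 higher at an unadjusted p of 0.05. Of all genes tested without it, 10.2% were lower and 9.05% higher. The median log2 fold change over the antioxidant genes was then -0.017. Prdx5, Gstm1 and Mt1 had an adjusted p under 0.05 in edgeR's quasi-likelihood test (6% of the antioxidant genes, against 1.10% of all genes tested). The number of genes on the higher side fell to 1 without mAktDKO 2 and to 2 without mAktDKO 3 or control 3, where 6.28%, 9.09% and 11.3% of all tested genes were higher.

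**Figure D5:**
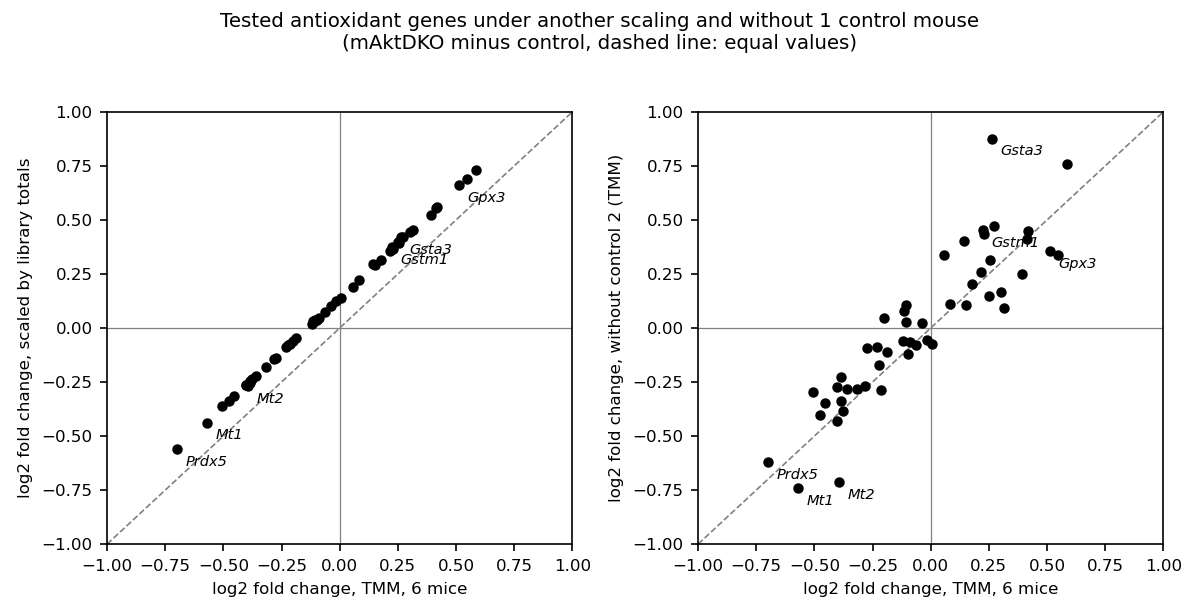
Each point is 1 of the 50 tested genes. The log2 fold change with TMM scaling and 6 mice (x axis) is plotted against that with library totals (left, y axis) and that without control 2 (right, y axis), with a dashed line at equal values. Library totals place every point above the line by a like amount, whereas omission of control 2 moves single genes, such as Gsta3 (from 0.26 to 0.88), Gstm1 (0.23 to 0.45) and Mt2 (-0.39 to -0.71).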

How the data were processed

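RNA of EDL from 3 mAktDKO and 3 control mice was analysed. The authors prepared rRNA-depleted, strand-specific libraries, sequenced them with paired-end reads of 37 bp, mapped the reads to mm10 with STAR (2.6.1b in the submitters' processing notes, another release in the study's methods) and estimated counts per gene with RSEM 1.3.1, which divides reads shared by similar genes. The annotation used for counting is not given in the sources used here. The deposited values are these expected counts (estimated counts), not scaled between mice, and 3.36% to 4.09% of the values of a mouse were not whole numbers. Controls are numbered 2 to 4 in the table but 1 to 3 in the labels, so each control column was used as a member of its group and not as a given labelled mouse.

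The counts were rounded, filtered with filterByExpr of edgeR 4.0.16 in R 4.3.3 (minimum count 10) and scaled with TMM factors, and 12892 genes were compared by the quasi-likelihood test of edgeR with Benjamini-Hochberg adjustment over all of them. The standard error is the log2 fold change divided by the square root of F. A gene was called at an adjusted p under 0.01, with 0.05, an unadjusted p of 0.05 and groups that do not overlap given beside it. DESeq2 1.42.0 was an alternative, as were other scalings, other filters and leaving out each mouse. The steps were tested on simulated data. Of 200 genes changed 2-fold there, edgeR recovered 67.5% at an adjusted p of 0.01 and 78% at 0.05. Smaller changes were not simulated. No 2 mice agreed within sampling noise (chi-square per degree of freedom of 7.64 to 69.9). Gene positions and transcript lengths are from the mm10 annotation, and promoter windows from RefSeq.

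The members, lists and markers were chosen with earlier results of these data known. The named genes are Sod2 and Cat, members with an adjusted p under 0.05, in each role group the 3 genes with the smallest p and the gene with the highest CPM, the 2 genes with the smallest p in each other list, Akt1 and Akt2. Other genes were named after their values were seen. For 1 gene that the rule names, no result is reported here. Age, genotype and strain are as labelled.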

Additional observations from a re-analysis of the deposited data

How the results depend on the processing

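At the adjusted p threshold of 0.01, edgeR's quasi-likelihood test called 3 genes in all and 0 antioxidant genes. DESeq2 called 328 and 2, removal of the filter on low counts gave 32 genes, and the threshold of 0.05 gave 152 and 1. At 0.01, leaving out each mouse in turn gave 0 to 8 genes in all and 0 antioxidant genes. At 0.05, 1.18% of all tested genes were called with 6 mice, 0.0230% without mAktDKO 2 and 2.96% without control 4. Without any one mAktDKO mouse or control 3, no antioxidant gene was called at 0.05. Without control 2 there were 3, and without control 4 there were 2. Gstp1 and Prdx5 passed 0.01 with DESeq2, at log2 fold changes of -0.46 and -0.71. Antioxidant genes lower at an unadjusted p under 0.05 were 13, or 7 with library totals and 10 to 13 with a mouse left out. Those higher were 4, or 9 with library totals, 2 with DESeq2 and 1 to 5 with a mouse left out. Over all tested genes 8.01% were lower and 6.11% higher with DESeq2, and 8.08% to 13.3% lower and 6.28% to 12.5% higher with a mouse left out. The median log2 fold change of the antioxidant genes, -0.094, was 0.043 with library totals and -0.15 to -0.017 with a mouse left out, while its distance from the median of all genes was -0.16 to -0.034 over the same omissions. With library totals 9 of the 50 log2 fold changes changed sign, to 0.0307 for Cat, 0.0466 for Gclm, 0.125 for Gpx1, 0.0337 for Gpx4, 0.101 for Gsr, 0.0362 for Gstm5, 0.074 for Sod2, 0.0386 for Txn1 and 0.0176 for Txnrd1. That scaling lifts all genes together. With a mouse left out, 11 changed sign, with ranges of -0.24 to 0.0799 for Cat, -0.073 to 0.0774 for Glrx2, -0.0576 to 0.0363 for Gpx1, -0.20 to 0.0266 for Gpx4, -0.11 to 0.022 for Gsr, -0.15 to 0.88 for Gsta3, -0.36 to 0.0479 for Gsta4, -0.36 to 0.0306 for Gstm4, -0.27 to 0.11 for Gstm5, -0.71 to 0.24 for Mt2 and -0.19 to 0.34 for Nqo1, and the cause was not tested. Omission of a mouse moved 36 of the 50 values by over 1.5 times, and Glrx, Gstk1, Gstp1, Gstt3, Gstz1, Nfe2l2, Prdx2, Prdx3, Prdx5, Prdx6, Sod1, Srxn1, Txn2 and Txnrd2 stayed within that. Akt2 ranged from -1.59 to -1.52 without 1 mAktDKO mouse, at adjusted p of 0.0165 to 0.0208, with fewer mice in the fit. No paired analysis was possible because no source pairs a mAktDKO mouse with a control, and the numbers of the controls differ between table and labels. The sum over genes with near-identical proteins was not run because no protein sequences were used here. The sums of Gstp1 with Gstp2 and of Gstm1 with Gstm3 were chosen after seeing the data. The depth limits genes under about 0.2 CPM.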

Other observations

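Nnt, the mitochondrial transhydrogenase that makes NADPH for glutathione and thioredoxin reductases, was chosen after its values were seen. Its level was 81.9, 88.3 and 162 CPM in mAktDKO mice 1 to 3, against 47.9, 114 and 116 CPM in controls 2 to 4. The C57BL/6J strain is known to carry a deletion within this gene, and the counts are per gene, so they do not show which part was transcribed. The lowest value was in control 2 and the highest in mAktDKO 3, and the log2 fold change of 0.26 (standard error 0.35) lay within the spread.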
